A study of Mus musculus with 2 samples.

Results

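The expression of 10 mucosal, companion-layer and stress keratins was compared between mouse tooth and skin. The genes were Krt4, Krt13, Krt24 and Krt76, Krt75 and Krt79, and Krt6a, Krt6b, Krt16 and Krt17. They were chosen by gene name, and every non-control probe that the array assigns to one of the 10 names was used. This gave 12 probes of 60 bases among the probes of 24323 named genes. Krt6b and Krt13 had 2 probes each and the other 8 genes had 1. The total RNA came from wild-type tooth and wild-type skin at P0 per the labels, whereas the study's methods name the following day. The study asked whether skin-like genes appear in teeth of mice lacking Sox21, a transcription factor, but no knockout sample was used here. Krt6a, Krt6b and Krt13 are among the genes that the study listed as raised in its knockout tooth germ on other arrays, so their presence in a tooth and skin comparison is not independent of that study. The methods describe the tooth sample as tooth germs, a tissue of dental epithelium and mesenchyme, and the site of the skin and the number of animals are not stated. Each tissue was represented by 1 array, so there was no replicate check, and no difference between the tissues was tested.

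Keratins are the intermediate-filament proteins of epithelial cells, and each filament is built from a type I and a type II partner. Which pair a cell makes follows its kind of epithelium. Krt4 and Krt13 are the pair of wet, non-cornified mucosa such as tongue and oesophagus, and Krt76 belongs to the mucosa of palate and gingiva. Krt75 marks the companion layer of the hair follicle, and Krt79 marks cells that form the hair canal. Krt6a, Krt6b, Krt16 and Krt17 are the stress keratins, which epidermis makes after wounding and which hair follicles, nails and oral epithelium make without injury. Krt24 is a less studied type I keratin and is treated here beside the mucosal ones.

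Values are given as log2 of the spot intensity relative to the 75th percentile of the array, so that 0 is the level of a moderately bright probe. A difference is skin minus tooth. Over the 8 members well above background on both arrays, the extraction software's own error estimate gave each difference an SD between 0.20 and 0.21 (log2). Each member probe had 1 spot, so scatter between spots was taken from other probes with at least 8 spots (288 in tooth, 273 in skin). Their median scatter gave a difference an SD of 0.12. Both cover the spot measurement and leave out the spread between animals and arrays. In whole tissue, fewer cells of a type and less RNA per cell cannot be told apart.

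Both tissues matched their labels. All 7 ameloblast genes were higher in tooth, 6 of them not well above background in skin, and all 5 genes of cornifying epidermis were higher in skin. All 4 odontoblast genes were well above background in tooth only, and 3 of 4 dental epithelium genes were at least 2-fold higher there. Skin was also higher for 5 of 6 hair follicle genes, 6 of 6 muscle genes and 5 of 5 melanocyte genes, whereas 4 of 7 mesenchyme genes were at least 2-fold higher in tooth. All 12 genes common to epithelia were higher in skin (10 with a median shift or spike-in scaling, 11 with normexp correction), 8 of them at least 2-fold, with a median difference of 1.56. Their summed level was 560 in tooth and 1122 in skin, on a linear scale with the 75th percentile as 1, a sum that its brightest probes decide. Of the 12, 4 lay within 2-fold, namely Cdh1 (0.06), Trp63 (0.16), Epcam (0.66) and Krt5 (0.94). None of the 12 was dim on either array. What part the higher level of this list in skin has in the keratin values was not tested.

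The 10 keratins did not move as a block. Skin exceeded tooth by 2-fold or more for 4 genes, Krt13 (by its brighter probe only), Krt16, Krt75 and Krt79. By the measured values, tooth exceeded skin by as much for 2 genes, Krt4 and Krt76. Neither of these 2 was well above background in skin, and at the bound the call was kept by Krt4 and lost by Krt76. Among all 17409 named genes well above background on at least 1 array, skin was higher by that much for 14.2% and tooth for 15.5%. Krt6a, Krt6b, Krt17 and Krt24 lay within 2-fold. The median over the 10 genes was 0.74, beside -0.04 over all genes. The 8 spike-in transcripts differed by a median of -0.01 before any scaling, and scaling to them shifted every difference by -0.62, to a median of 0.12 for the keratins. Under that scaling the counts of members on each side were 4 and 2. The background moved, however: 1573 of all named genes then passed 2-fold toward skin and 5639 toward tooth, in place of 2466 and 2691. The 14.2% and 15.5% above thus do not apply to the spike-in counts. The count of 2 keratins toward tooth rests on dim skin spots, and it was 1 with those spots at their bound and 0 under normexp background correction.

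**Figure D1:**
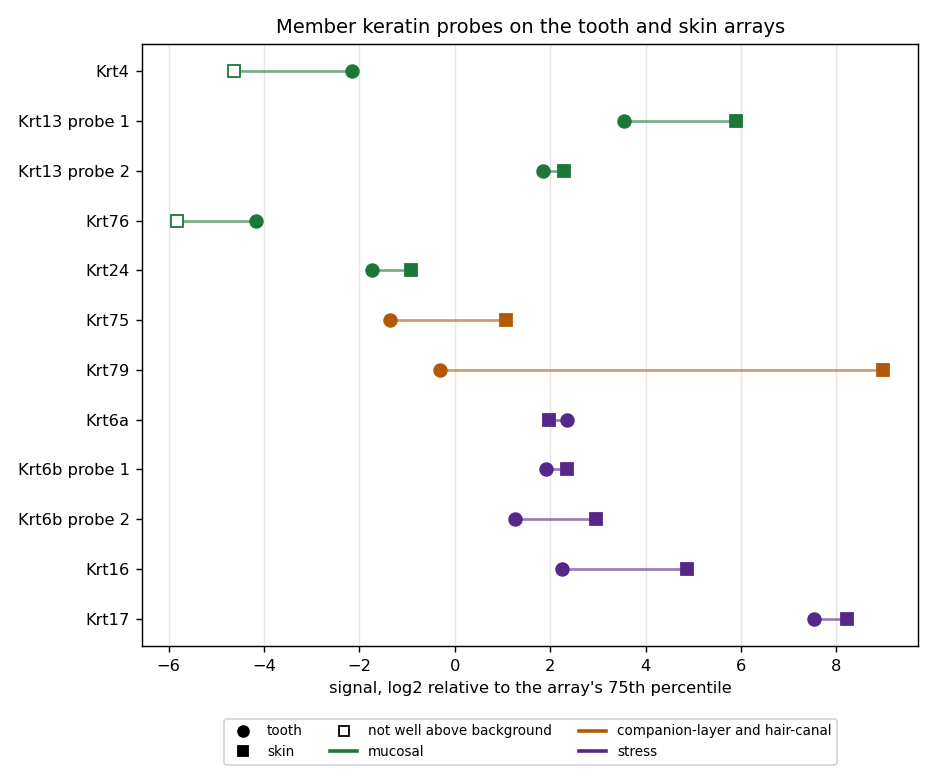
Signal of each member probe (rows) on the tooth array (circles) and the skin array (squares), as log2 relative to the 75th percentile of its array. Open symbols were not well above background. The tissues should be compared within a row only, because levels of different probes are not comparable. Krt79 has the widest gap (9.28), and Krt4 and Krt76 are the rows with an open skin symbol.

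The mucosal pair came apart. Krt13, the type I partner, was well above background in both tissues, at 3.55 in tooth and 5.90 in skin by its brighter probe, an intensity of 5004 against 16538 and a difference of 2.36. Krt4, the type II partner, was at -2.16 in tooth and -4.64 in skin, where its spot was not well above background. It was therefore at least 2.96-fold higher in tooth, although normexp background correction left a difference of only -0.51. Its intensity was 95.4 in tooth, against 11.1 in skin, where the software's error of the spot was 42.1% of the value. The more lenient call, signal significantly above background, was met in both tissues. Partners of 1 filament thus had opposite directions in the same arrays, with the reservations that Krt4 rests on a dim skin spot and Krt13 on its probe, as follows.

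Both probes of Krt13 lie on the minus strand of chromosome 11 in mm9, and they disagreed. The first begins at base 279 of the transcript (chr11:99982471-99982530) and the second at base 885 (chr11:99980412-99980471). They are shown because the size of the Krt13 result, and before scaling also its direction, turns on which of them is read.

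Krt13, first probe: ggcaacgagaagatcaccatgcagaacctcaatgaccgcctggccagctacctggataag
Krt13, second probe: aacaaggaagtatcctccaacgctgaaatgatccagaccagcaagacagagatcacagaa

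The first probe gave 3.55 for tooth and 5.90 for skin. The second gave 1.85 for tooth and 2.29 for skin, so it differed by 0.44, within 2-fold. Its intensities before scaling were 1538 in tooth and 1347 in skin, so tooth was higher before scaling. The gap of 1.92 between the differences of the probes was reached by 2.59% of the 3241 genes for which both arrays detected precisely 2 probes, where the median gap was 0.26. Each was compared with the other probes of the array at every ungapped offset that left at least 25 overlapping bases. Neither reached 75% identity over a whole overlap. Shorter stretches within an overlap, and whole transcripts, were not searched. The RefSeq table lists 2 starts for Krt13, 989 bases apart, and which transcript each probe reads was not analysed here. The Krt13 difference ranged from 0.44 to 2.40 over the processing alternatives, and the lowest value was that of the second probe. No alternative combined the second probe with spike-in scaling.

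Krt76 was close to background. Its single probe (chr15:101715054-101715113, minus strand) was at -4.16 in tooth and -5.82 in skin, with intensities of 24.0 and 4.90. The tooth spot was called well above background and the skin spot was not, and the lowest level that the skin array called so was -3.73. The bound therefore gave no fold for Krt76. Its reported difference was -1.66, and normexp background correction turned it to 0.082.

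Krt24 had a value of -1.73 in tooth and of -0.93 in skin, and both spots were well above background. Its difference of 0.80 was within 2-fold. The intensities before scaling were 129 and 145, so most of the difference came with the scaling, and with spike-in scaling it was 0.18. Of the 4 mucosal keratins, 2 were higher in skin and 2 in tooth, with a median of -0.43, or 0.40 with the dim skin values at their bound and 0.37 with normexp correction.

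The probes of Krt4 and Krt24 are shown as the sequences behind the tooth-sided and the near-equal mucosal values. The Krt4 probe (chr15:101750158-101750736, minus strand) spans 579 bases of the genome with its 60 bases, so it crosses an intron and reads spliced RNA. The Krt24 probe (chr11:99143994-99144053, minus strand) matched a Krt42 probe at 21 of 25 overlapping bases. Krt42 was higher in skin by 3.66, and whether its transcript adds to the Krt24 spot was not tested.

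Krt4: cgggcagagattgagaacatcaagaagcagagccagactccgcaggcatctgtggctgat
Krt24: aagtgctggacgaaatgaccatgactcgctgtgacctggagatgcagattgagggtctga

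Other genes of oral and oesophageal mucosa were split as well. Of 9 measured, skin was at least 2-fold higher for 3 and tooth for 2, and the median was 0.35, or -0.27 under spike-in scaling. Both tooth calls rest on dim skin spots, and under normexp correction there were 0. Tgm3, a gene of this list, was counted within 2-fold by its brighter probe (0.10). Its other probe, well above background in skin only, differed by 5.62 by the measured dim value. Krt78, a type II keratin of differentiating stratified epithelium, differed by 7.98 toward skin. Cnfn (6.83) and Crnn (5.04), the cornified-envelope proteins cornifelin and cornulin, were also higher in skin. Rhcg, an ammonium transporter, was detected in tooth only and was at least 5.83-fold higher there. Sprr3, a small proline-rich protein of oesophageal epithelium, was likewise above background in tooth only, at -3.93, and its bound gave no fold. Krt4, Krt76, Rhcg and Sprr3 were thus the genes of these lists well above background in tooth alone. They were 2 of the 4 mucosal keratins and 2 of the 9 other genes measured, and this class holds 8.03% of all genes tested. By the more lenient call, Krt4 was above background in skin too. Muc4 was dim in both tissues. Whether oral epithelium was part of the tooth tissue was not tested.

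Among the hair follicle members, Krt79 had a larger difference than any other member. Its probe (chr15:101759764-101759823, minus strand) had an intensity of 347 in tooth and 139558 in skin, and neither spot was saturated. On the scaled axis these are -0.30 and 8.98, a difference of 9.28 or 622-fold. Among the 15271 genes measured on both arrays it ranked 12th from the skin side, and 4th among 39 keratins. The difference lay between 8.66 and 9.33 under every alternative run.

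Krt75, the companion-layer keratin, was also higher in skin. Its intensity was 167 in tooth and 580 in skin (chr15:101393774-101393833, minus strand). The scaled values were -1.36 and 1.07, a difference of 2.43, with a range of 1.81 to 2.48 over the alternatives. Both spots were well above background, so RNA that binds the Krt75 and Krt79 probes was also present in the tooth sample. Both members of this group were thus at least 2-fold higher in skin.

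The other genes of the hair canal and sebaceous duct ran in the same direction as these keratins. All 9 were higher in skin (8 with spike-in scaling, quantile normalization or a median shift), 8 of them at least 2-fold, and their median difference was 4.94. Cst6, a cystatin protease inhibitor, had the largest difference among those detected in both tissues, 6.32. Atp6v1c2, a subunit of the proton pump, followed with 6.04. Defb6, a beta-defensin, was above background in skin only and at least 26.1-fold higher. Lrig1, which marks stem cells of the upper hair follicle, differed by 4.57, and Gata6, a transcription factor of the sebaceous duct, by 2.99. Mc5r, a melanocortin receptor of sebaceous glands, was nearly equal, at 0.12.

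The stress keratins are described next. Krt17 was bright in both tissues, with intensities of 79574 in tooth and 82267 in skin (chr11:100117535-100117594, minus strand). Its scaled values were 7.54 and 8.22. The difference of 0.68 was within 2-fold, and it was 0.06 under spike-in scaling. Krt16 was at 2.25 in tooth and 4.86 in skin (chr11:100107408-100107467, minus strand). Its intensities were 2034 and 8020 and its difference 2.61, and it stayed at 1.99 or above under every alternative. Krt16 was thus the 1 stress keratin at least 2-fold higher in skin, and its neighbour is Krt17, 10.1 kb away by probe position.

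Krt6a and Krt6b are near-identical type II keratins, and the probes treat them unequally. The Krt6a probe (chr15:101520862-101520921, minus strand) was at 2.34 in tooth and 1.98 in skin. Its difference of -0.36 was less than 2 times its estimated error, although it had the same sign under all 14 alternatives, down to -0.98 with spike-in scaling. The first Krt6b probe (chr15:101509450-101509509, minus strand) gave 1.91 for tooth and 2.36 for skin and differed by 0.45. The array's own annotation gives that probe 2 RefSeq transcripts, those of Krt6b and Krt6a, so its value is a shared one. The second Krt6b probe (chr15:101506492-101506551, minus strand) is listed for Krt6b alone. It gave 1.26 for tooth and 2.96 for skin, so it differed by 1.70 or 3.25-fold. The shared probe thus lay between the value of the Krt6a probe and that of the Krt6b probe. The gap of 1.25 between the Krt6b probes was reached by 5.68% of the genes with 2 probes.

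The shared probe is printed beside a probe for Krt5, the keratin of basal epithelial cells, with which it shares sequence. Capitals mark bases that are identical between them where they overlap.

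Krt6b, first probe: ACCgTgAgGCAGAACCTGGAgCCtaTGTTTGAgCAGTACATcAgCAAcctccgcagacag
Krt5 probe: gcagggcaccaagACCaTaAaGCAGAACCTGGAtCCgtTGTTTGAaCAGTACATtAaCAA

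They share 38 of 47 bases. Krt5 was bright, at 8.82 in tooth and 9.76 in skin by its other probe, and the Krt5 probe shown here differed by 0.77. What share of the Krt6b spot each transcript gives was not tested. By the probe listed for Krt6b alone, Krt6b passes 2-fold, and the members at least 2-fold higher in skin become 5 of 10. Krt13, in turn, loses its 2-fold call by its second probe (0.44). With the dimmest detected probe standing for each gene, both changes apply and the count was 4. The second Krt6b probe matched a probe for Gm5478, a keratin-like gene model, at 26 of 33 bases. By the comparison of whole overlaps described for Krt13, the other 9 member probes had no like probe on the array.

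As a group, the stress keratins had 1 of 4 members at least 2-fold higher in skin and a median of 0.57, or -0.06 under spike-in scaling. Known regulators of these genes were read beside them. Of 19 measured, 12 exceeded 2-fold toward skin and 0 toward tooth, with a median of 1.18, and under spike-in scaling these counts were 8 and 1. Among those measured on both arrays, Cebpb (2.31), a transcription factor of differentiating keratinocytes, and Fos (2.20), a subunit of the transcription factor AP-1, had the largest differences. Areg, an EGF receptor ligand, and Fosl1, another AP-1 subunit, were above background in skin only and were at least 16.3-fold and at least 3.50-fold higher there. Trp63, the transcription factor of stratified epithelia, differed by 0.16. Nfe2l2, the regulator of oxidative stress genes that also acts on stress keratins, differed by -0.18. The Hedgehog effectors Gli1 and Gli2 differed by -0.18 and 0.82, all within 2-fold.

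The list of epithelial stress genes was divided. Of 8 measured, 4 exceeded 2-fold toward skin and 4 toward tooth (3 under normexp correction). Which cells of each whole tissue gave these signals was not tested. Sprr1b (9.13) and Sprr1a (7.62), small proline-rich proteins of the cornified envelope, were higher in skin, and Sprr2d was at least 149.8-fold higher there. The antimicrobial S100a9 (-3.66) and S100a8 (-2.62) and the protease inhibitor Slpi (-2.26) were higher in tooth. Il1b and Cxcl1, which inflamed epithelium makes, were dim in both tissues.

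**Figure D2:**
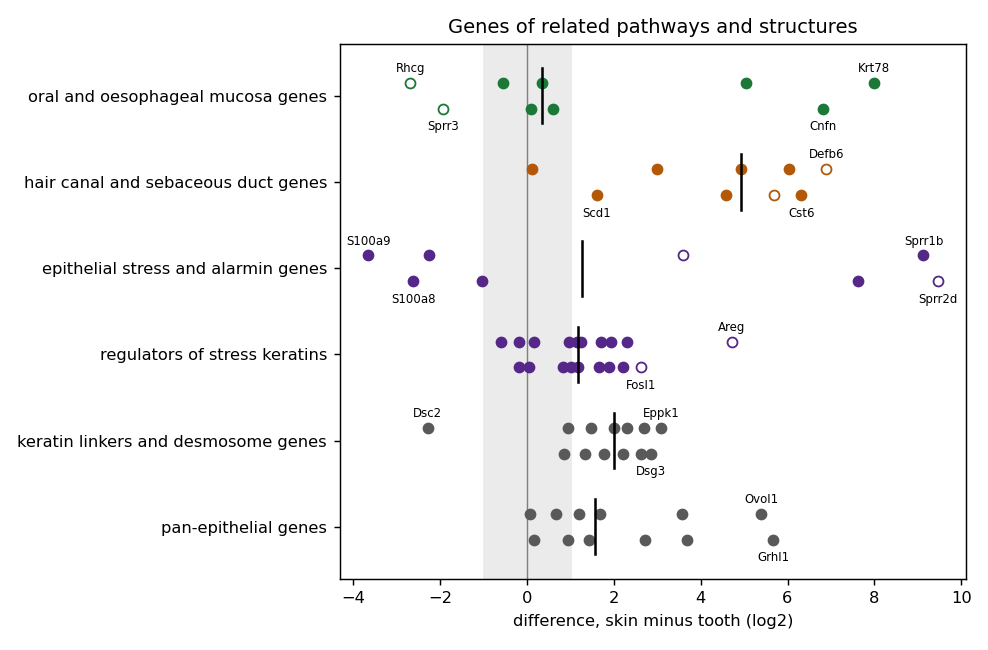
Difference between skin and tooth (log2) for the measured genes of 6 lists. Each point is a gene, open points were well above background on 1 array only and are drawn at the measured dim value, black lines are list medians, and the grey band is within 2-fold. The 9 hair canal genes lie on the skin side (median 4.94), where 8 of them stay under the other scalings, and the mucosa and stress lists fall on both sides.

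The members were set beside the other keratins. The 41 other keratins measured had a median of 4.80, and 33 of them exceeded 2-fold toward skin and 2 toward tooth. The 7 inner root sheath keratins had a median of 6.68 and ran from 4.92 for Krt73 to 11.98 for Krt71 among those measured on both arrays, with Krt25 above background in skin only. The 13 hair shaft keratins had a median of 4.89, with 10.47 for Krt35 and with Krt84 seen in tooth only, at least 1.65-fold higher there. The 7 epidermal keratins had a median of 4.56, from 0.94 for Krt5 to 9.93 for Krt1. The 5 simple-epithelial keratins had a median of -0.18, with -2.73 for Krt18 and with Krt20 above background in skin only, at least 16.1-fold higher there. A further list of 8 keratins had a median of 2.74, from 0.01 for Krt222 to 7.98 for Krt78, and Krt87, in none of the lists, differed by 5.39. Several of these medians depend on dim spots. Under normexp correction the hair shaft median was 1.98, the epidermal median 2.85 and that of the 8 other keratins 1.62, and with genes measured on both arrays only the hair shaft median was 2.07 and that of the 8 was 1.81. Of the 51 keratins measured, 3 were well above background in tooth only, and Krt4 and Krt76 were 2 of them.

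**Figure D3:**
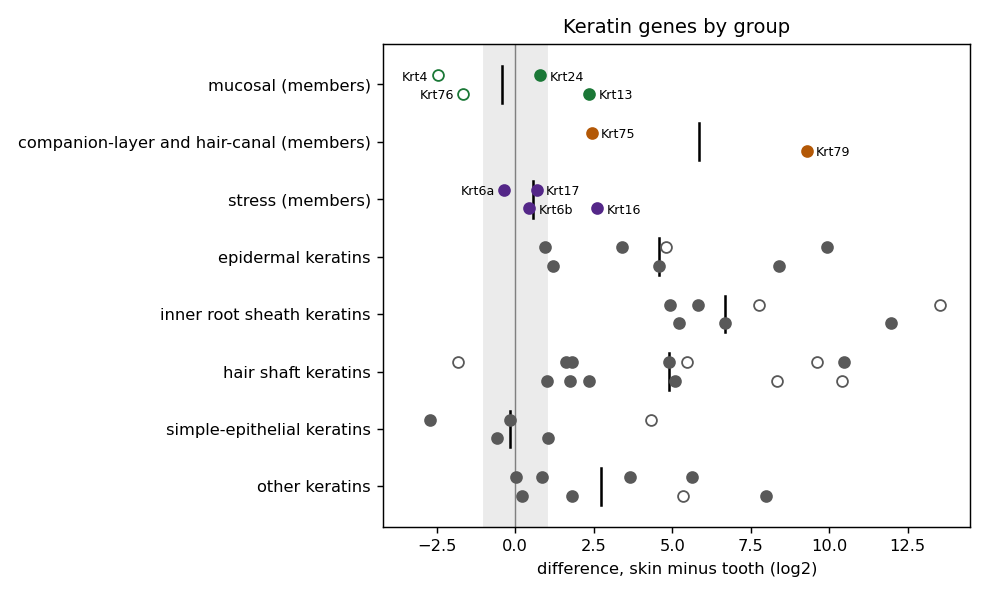
Difference between skin and tooth (log2) for each measured keratin of the lists, by group. Krt87, in none of the lists, is not drawn. Open points were well above background on 1 array only and are drawn at the measured dim value, black lines are group medians, and the grey band is within 2-fold. The mucosal members spread from -2.47 to 2.36, and Krt79 at 9.28 lies among the highest hair and epidermal keratins.

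Keratin genes lie in a type I cluster on chromosome 11 and a type II cluster on chromosome 15, with 27 genes on the array in each. Krt4 lies 9.61 kb from Krt79 by probe position. Krt4 was at least 2.96-fold higher in tooth, or -0.51 (log2) under normexp correction, and Krt79 was higher in skin by 9.28. Krt76 lies on the other side of Krt4, 35.1 kb away. This stretch with Krt76 and Krt4 was flanked by Krt77, an epidermal keratin above background in skin only and at least 23.5-fold higher there, and by Krt79 and Krt78 at 9.28 and 7.98.

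The other members had the following neighbours. Krt75, Krt6b, Krt6a and Krt5 follow each other on chromosome 15, with differences of 2.43, 0.45, -0.36 and 0.94, and Krt90 (0.84) lies before Krt75. On chromosome 11, Krt13 (2.36) lies between Krt36 (1.75) and Krt15 (4.56). Krt16 (2.61) and Krt17 (0.68) lie between Krt14 (1.19) and Krt42 (3.66). Krt24 (0.80) lies between Krt222 (0.01) and Krt25, which was above background in skin only and at least 2759-fold higher there.

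**Figure D4:**
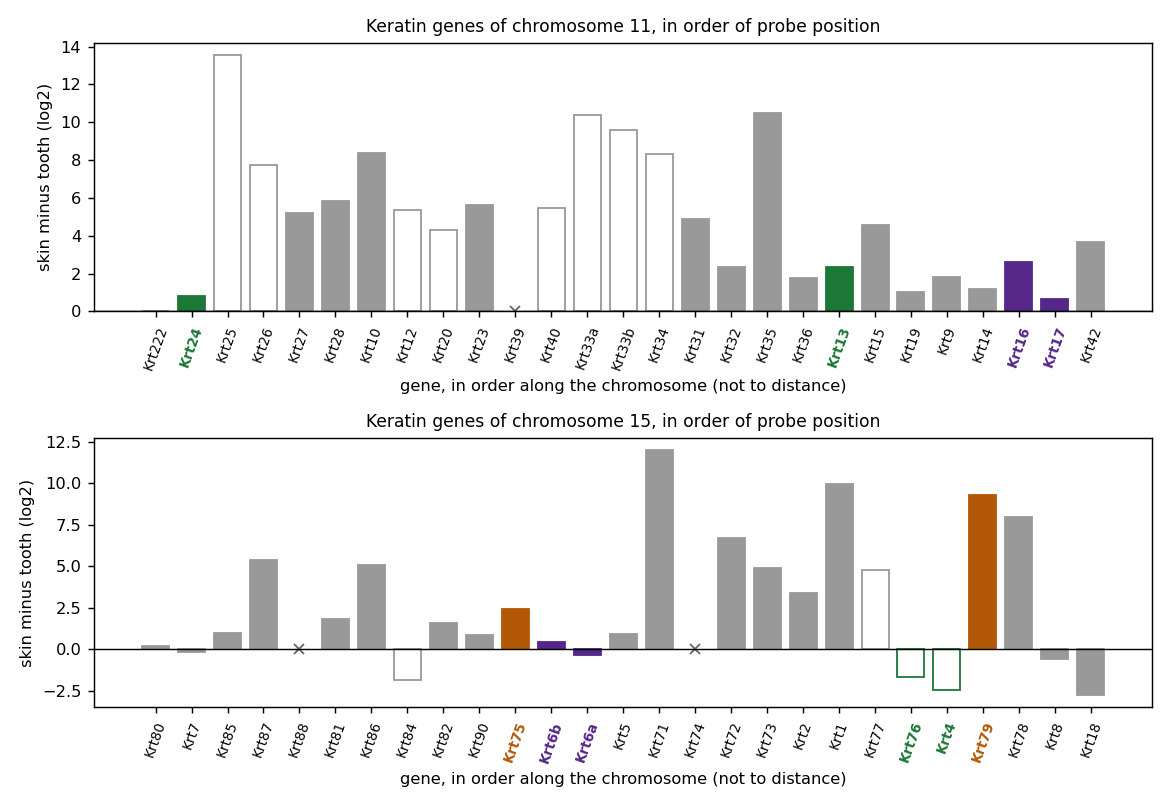
Difference between skin and tooth (log2) for the keratins of chromosomes 11 and 15 in order of probe position, not to distance. Coloured bars are members (green mucosal, orange companion layer and hair canal, purple stress), open bars were well above background on 1 array only and are drawn at the measured dim value, and crosses were dim on both arrays. On chromosome 15 the bars of Krt76 and Krt4 point toward tooth and the next bar, Krt79, reaches 9.28 toward skin.

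The RefSeq table held promoters for 5 of the 10 members, all on the minus strand of GRCm38.p6. The 60 bases before their starts are shown to be read beside the member differences. Capitals mark ATAAA, searched on both strands from 40 to 16 bases before the start.

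Krt13 (chr11:100121567-100121626): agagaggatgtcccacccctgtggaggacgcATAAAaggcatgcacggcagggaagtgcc
Krt24 (chr11:99285263-99285322): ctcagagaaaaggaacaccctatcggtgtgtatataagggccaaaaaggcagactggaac
Krt75 (chr15:101573905-101573964): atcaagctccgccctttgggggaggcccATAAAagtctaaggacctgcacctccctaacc
Krt76 (chr15:101892921-101892980): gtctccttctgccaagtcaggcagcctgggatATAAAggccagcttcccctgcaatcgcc
Krt79 (chr15:101940325-101940384): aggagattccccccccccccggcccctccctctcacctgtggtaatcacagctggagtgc

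The letters were found before Krt13, Krt75 and Krt76, which differed by 2.36, 2.43 and -1.66, and were not in the windows of Krt24 and Krt79 or before the second start of Krt13, which is not printed. They were thus in 3 of 6 member promoters. Among other keratins they were in 17 of 31 promoters, and among all 32851 promoters of the table in 6.32%. These matches are descriptions of sequence and were not tested for function. Only the exact letters were searched, so other forms, such as the tatataag printed for Krt24, were not counted. The Krt76 difference rests on a dim skin spot and was 0.082 under normexp correction.

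Keratin filaments are anchored by desmosomes and plakins, and these genes were read as the partners of all 10 members. Of 13 measured, 12 were higher in skin, 10 of them at least 2-fold, with a median of 1.99, and under spike-in scaling 8 were at least 2-fold higher. Eppk1, an epidermal plakin, had a difference of 3.09, the desmosomal cadherin Dsg3 had 2.85, and Jup, plakoglobin, had 2.69. Dsc2, another desmosomal cadherin, was higher in tooth, at -2.29. Dst was counted toward skin by its brightest probe (1.33), but its other probes, detected on both arrays, differed by -1.96 and -1.88. Among the genes common to epithelia, the transcription factors Grhl1 (5.67) and Ovol1 (5.39) and the tight-junction gene Cldn4 (3.69) had the largest differences.

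**Figure D5:**
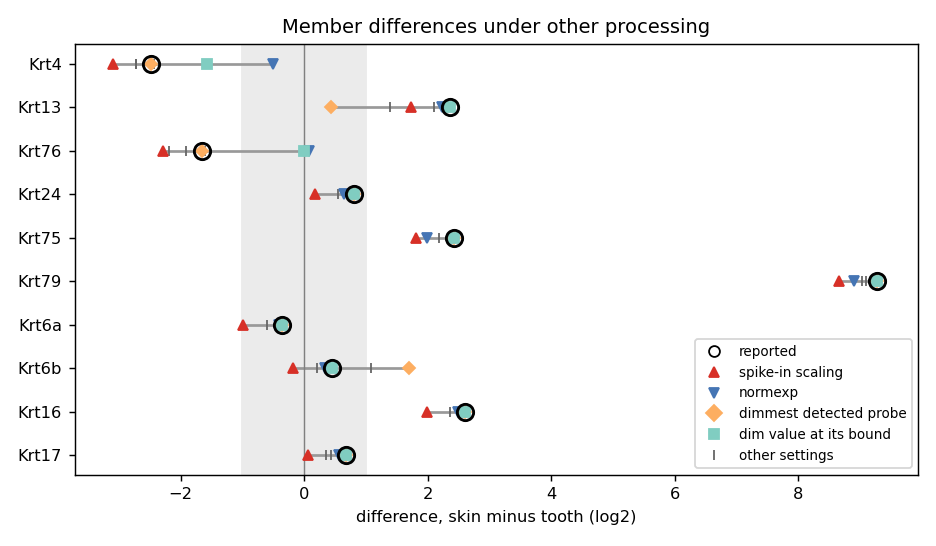
Difference between skin and tooth (log2) of each member as reported (open circles) and under the alternatives of scaling, background correction, probe choice and filtering. The grey band is within 2-fold. Krt79 moves little (8.66 to 9.33), Krt13 and Krt6b change most with the choice of probe, and Krt4 and Krt76 with the treatment of dim signal.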

How the data were processed

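Total RNA of wild-type tooth and skin was labelled with a single dye and hybridised to 1 Agilent array per tissue. The deposited spot files hold linear intensity values that the authors extracted with Agilent Feature Extraction 10.7.3.1, background-subtracted per the file headers. The authors' value table holds, for each spot, the ratio of that intensity to 1 factor per array (431 and 275).

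Outlier spots were dropped, spots of a probe averaged on the log2 scale, and the 75th percentile of each array subtracted (Python 3.11.15, pandas 2.3.3, numpy 2.4.6). A probe was detected when over 50% of its spots were well above background. The brightest probe stood for a gene, and genes detected on at least 1 array entered. With a dim spot on the other array, a fold is given only as a bound, the bright value over the lowest detected signal. Differences, medians, shares and 2-fold calls used the measured dim value unless the bound is named. Array number limits the precision, and no test was run. Alternatives included normexp with an offset of 50 (limma 3.58.1, R 4.3.3). Coordinates of probes are mm9. All 10 members matched RefSeq (GRCm38.p6), which was otherwise used for names and promoters. The members, lists and the rule for named genes were chosen with earlier results of these data known. The rule named all members, the 3 largest differences per list and direction, set regulators and cluster neighbours. Genes described outside it were picked after their values were seen. The calculation was tested on simulated data.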

Additional observations from a re-analysis of the deposited data

How the results depend on the processing

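Counts and directions of the 10 keratins were recomputed under 13 alternatives, and under 1 more, chosen after seeing the data, in which Krt6b is read by the probe listed for it alone. No paired analysis was possible because each tissue had 1 array. The count at least 2-fold higher in tooth, 2 as reported, was 0 under normexp correction, 0 with genes measured on both arrays only, and 1 with dim values at their bound. The median of 0.74 was 0.49 with a median shift, 0.59 with quantile normalization, 0.12 with spike-in scaling, 0.61 with normexp, 1.58 with genes measured on both arrays only, 0.94 with the mean of all probes, and 1.25 with the Krt6b probe. The cause was not tested, except that fewer genes entered where both arrays were required. Krt76 reversed under normexp (0.082), and the median of the epithelial stress genes (1.27) reversed with genes measured on both arrays only (-1.65). Krt6b, not called, changed sign with spike-in scaling (-0.17). A spot near background limits Krt4 and Krt76.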
